A study of Mus musculus with 6 samples.

Results

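The genes described here are 42 components of the protein-folding machinery of the endoplasmic reticulum (ER), namely its chaperones, disulfide isomerases, ER-associated degradation factors and the sensors of the unfolded protein response (UPR). They were taken by symbol from a table of 39234 genes, each symbol matched 1 gene, and all 42 passed the filter on low counts that left 18188 genes to test. RNA was sequenced from HK-2 cells, an established line of human kidney proximal tubule epithelium, in 3 control libraries and 3 libraries with overexpression of USAG-1, a secreted antagonist of BMP and Wnt signalling encoded by SOSTDC1. Both groups carry the wild-type genotype label, so that the overexpressed gene is the difference between them that the labels name, and whether the controls received an empty plasmid is not given in the labels. For overexpression in this line the methods of the study describe transient transfection of a plasmid, and the promoter of the plasmid is not given in the sources used here. Mouse is the organism in the sample records, but HK-2 is a human line and the table lists human genes.

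Proteins that enter the secretory pathway are folded in the ER, where HSPA5 (GRP78, BiP) holds unfolded chains, calnexin and calreticulin bind glycoproteins and disulfide isomerases pair cysteines. Chains that fail to fold are sent back to the cytosol and degraded by the proteasome. When unfolded proteins accumulate, the membrane sensors ATF6, IRE1 (ERN1) and PERK (EIF2AK3) start the UPR, which raises transcription of the chaperones and degradation factors and slows translation, and proximal tubule cells engage it under ischemic stress. HSPA5 is among the proteins that the study follows together with USAG-1, and the comparison of the libraries addresses whether mRNA of HSPA5 and of the machinery around it differs with USAG-1 overexpression.

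The library totals ranged from 41236194 to 48699471 counts, and levels are given as CPM, the usual depth-scaled count of a gene, with library sizes after TMM scaling. SOSTDC1 had 79, 80 and 60 counts in control replicates 1, 2 and 3 and 5072, 3907 and 4438 counts in overexpressing replicates 1, 2 and 3, so that every library followed its label (log2 fold change 5.94 ± 0.13 SE). Of the markers of kidney epithelium, PAX8, CDH6, HAVCR1 and GGT1 each had at least 3628 counts in every library, whereas LRP2 had 0 counts in all 6 libraries and HNF4A at most 4. Among the epithelial genes, KRT8, KRT18, KRT19, KRT7 and EPCAM were present and CDH1 had at most 9 counts in any library.

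Markers of other cells moved with the groups. All 13 of 13 T and NK cell genes were lower in the overexpressing libraries, with a summed level of 97.7, 91.5 and 109.8 CPM in the controls and 13.4, 10.2 and 9.89 CPM with overexpression. GNLY, the most abundant of them in the controls and chosen after its values were seen, gave 933, 1148 and 1235 counts there and 21, 60 and 80 counts in the overexpressing libraries, and CD3D and CD2 had 0 counts in overexpressing replicate 1 and replicate 2, respectively. Transcripts of these cells are not expected in a pure culture of an epithelial line, and their source in the control libraries is not given in the labels and was not tested, which bears on every comparison of the groups. In bulk RNA, fewer cells of a type and less RNA per cell cannot be told apart. Plasma cells are rich in several of the chaperones described here, and of their 10 markers 7 could be tested and 1, PRDM1, was lower in edgeR's test. At an unadjusted p under 0.05 3 were lower, and DESeq2's Wald test and limma-voom called 3 and 2 lower. Of the 7, 6 had a negative log2 fold change (median -0.90). In every overexpressing library 4 of the 7 lay below all controls, as did 18.1% of all genes. JCHAIN, IGHG1, PRDM1 and POU2AF1 had at most 85 counts in any library. In the 2 lowest of 5 classes of level, up to 6.09 CPM, the median log2 fold change of all genes was -0.24 and -0.12. The summed plasma cell level was 162, 167 and 189 CPM in the controls and 168, 179.5 and 179.6 CPM with overexpression, nearly all of it SDC1, which epithelial cells also express, while TNFRSF17 had 0 counts in 5 of 6 libraries and MZB1 in 3. Mitochondrially encoded genes took 4.80% to 5.59% of the counts in the controls and at most 1.55% in each overexpressing library. Some libraries stood apart at other blood cell genes, chosen for naming after their values were seen. The summed platelet and erythroid level was 8.19, 110.0 and 10.7 CPM in control replicates 1, 2 and 3 and 77.3, 8.43 and 19.7 CPM in overexpressing replicates 1, 2 and 3, most of it from hemoglobin genes. HBB had 144, 3475 and 134 counts in the controls and 2368, 90 and 344 with overexpression, while ALAS2 had 0 counts in 4 libraries. The summed myeloid level was 136, 112 and 199 CPM in the controls and 164, 177 and 184 CPM with overexpression, with CD68 the most abundant, and S100A8 had 120, 95 and 980 counts in the controls and 102, 707 and 430 with overexpression. The part of the blood cell transcripts in the results below was not tested, and with the mitochondrially encoded genes left out the same 8 ER genes passed the threshold.

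At the threshold used, the share of ER folding genes that differed between the groups was near that of all genes. At an adjusted p under 0.05 in edgeR's quasi-likelihood test, 8 of 42 (19.0%) passed, beside 15.9% of all 18188 genes tested. Of these, 2 were higher with overexpression (CANX and FKBP14), where 8.95% of all genes were. The 6 that were lower (CRELD1, DERL2, MANF, ERO1A, DNAJB11 and ATF6B) compare with 6.91% of all genes. At an unadjusted p under 0.05, 4 of the 42 genes were higher and 13 lower (40.5% in all), beside 15.8% and 14.7% of all genes (30.5% in all). The median log2 fold change was -0.04 over the 42 genes and -0.02 over all genes tested, and the median size of the change without regard to sign was 0.128 and 0.229, respectively. By level, 34 of the 42 genes lay among the 7275 most highly expressed of all genes tested. There 7 of the 34 (20.6%) passed the threshold against 24.6% of all genes at those levels. By direction, 2 of the 34 were higher and 5 lower, beside 16.7% and 7.95% of all genes at those levels, and the median log2 fold changes were -0.03 and 0.04. The median size of the change was 0.112 for these 34 and 0.157 for all genes at those levels.

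By the order of the libraries alone, the groups did not overlap for 22 of the 42 genes, with 7 above and 15 below the controls. Of all genes tested, 37.6% did not overlap, 19.4% above and 18.1% below. The 95% interval of the log2 fold change lay between -0.5 and 0.5 for 35 of the 42 genes. DERL2, the gene of the group with the smallest p, ranked 968th among all genes tested. Together the 42 genes took 0.980% to 0.996% of the counts in the controls and 1.00% to 1.01% with overexpression. With the mitochondrially encoded counts left out of the totals the order was the opposite, with 1.04% to 1.05% in the controls and at most 1.03% with overexpression, and the summed CPM of the 42 genes overlapped between the groups.

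**Figure D1:**
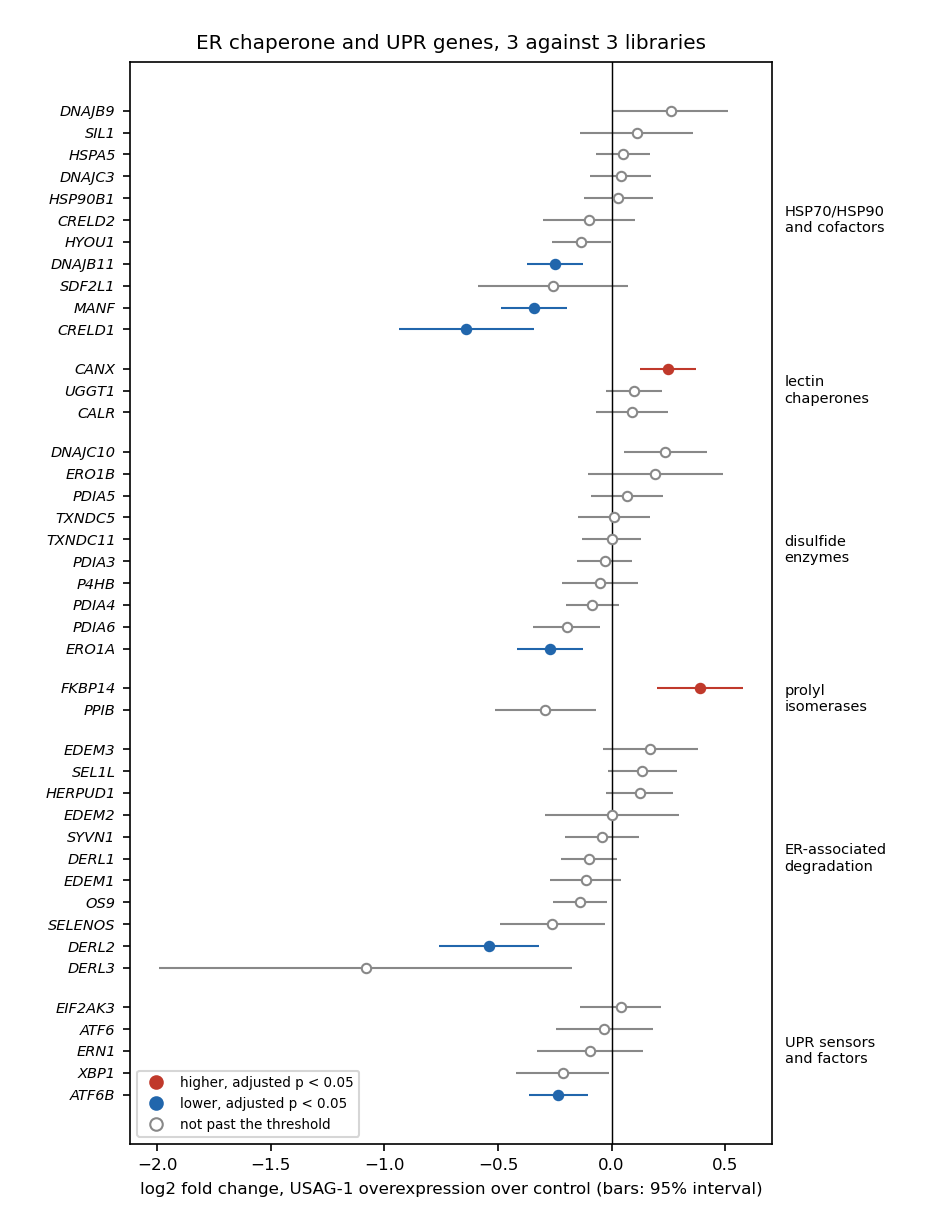
Log2 fold change of each of the 42 genes, USAG-1 overexpression over control, with its 95% interval from edgeR's quasi-likelihood fit (3 libraries per group), sorted within each role. Filled points mark the 2 higher and 6 lower genes at an adjusted p under 0.05, and most open points lie close to 0.

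The number of genes past the threshold depended on the libraries. Without control replicate 1, 2 or 3 it was 6, 3 and 15 of 42, and without overexpressing replicate 1, 2 or 3 it was 2, 0 and 3. The share of all genes past the threshold moved as well, to 10.2%, 8.74% and 27.0% without control replicate 1, 2 or 3 and to 6.92%, 5.98% and 7.09% without overexpressing replicate 1, 2 or 3. With overexpressing replicate 2 left out, where edgeR called none, 3 genes were higher and 8 lower at an unadjusted p under 0.05 (26.2% of the 42), beside 23.0% of all genes in the same fit. Control replicate 3 stood apart from the other controls. Its log2 level differed from the mean of control replicates 1 and 2 by a median of 0.130 over the 42 genes, whereas control replicates 1 and 2 differed from each other by 0.0496. The corresponding medians over all genes tested were 0.246 and 0.114. Among the controls it was the highest for 26 and the lowest for 10 of the 42 genes, and the highest for 7329 and the lowest for 7574 of all 18188 genes tested. The part of control replicate 3 in the results was tested by leaving it out. Without that library, 35.7% of the ER genes passed the threshold, and these included the 8 genes called with all libraries. The median of the 42 genes then lay at 0.01, on the other side of 0.

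**Figure D2:**
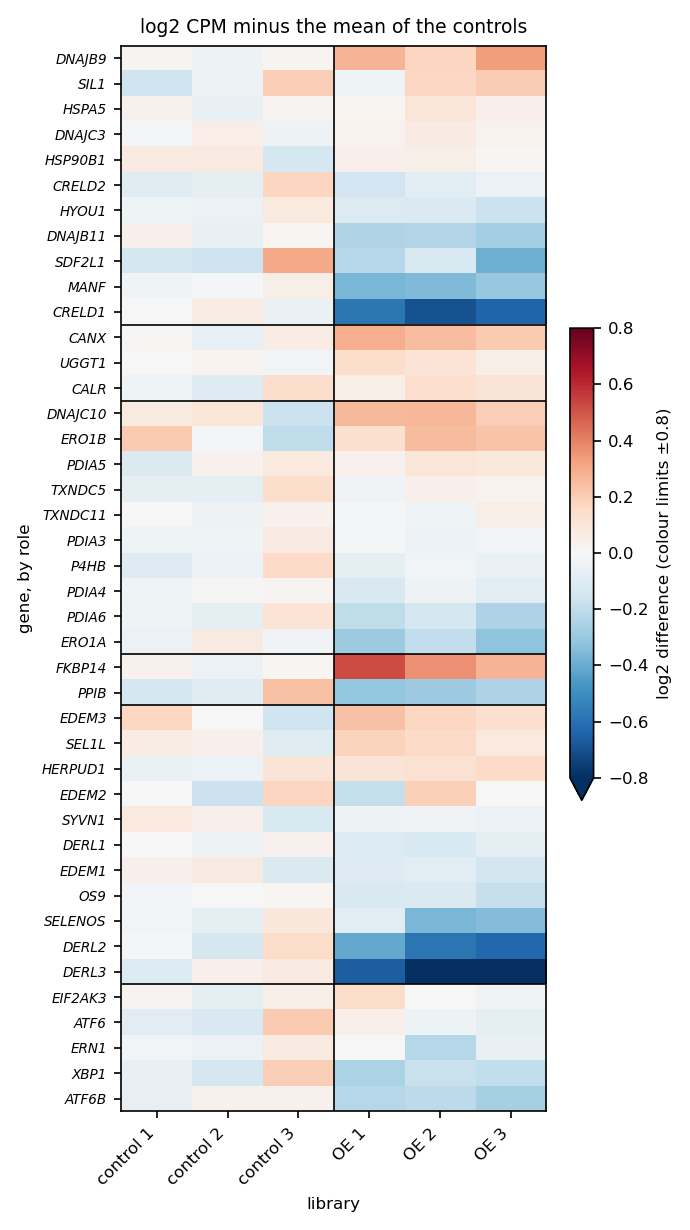
Log2 CPM of each of the 42 genes in each library minus the mean of the 3 controls (colour, limits ±0.8 with lower values drawn at the limit), with genes grouped by role and the black vertical line between the groups. Control replicate 3 differs from the other controls in both directions, for example above them at SDF2L1, PPIB, ATF6 and XBP1 and below them at ERO1B and DNAJC10. The darkest blue cells are DERL3, a gene with under 50 counts in every library.

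HSPA5, the ER's HSP70 chaperone and the protein that keeps the UPR sensors inactive, is given first because the study discusses it. The gene (ENSG00000044574, chr9:125234853-125241382, minus strand, hg38) was at 1198, 1123 and 1187 CPM in control replicates 1, 2 and 3 and 1180.3, 1248 and 1203 CPM in overexpressing replicates 1, 2 and 3. The ranges of the groups overlapped, with control replicate 2 lowest and overexpressing replicate 2 highest. The mean was 1169 ± 40.5 CPM in the controls and 1210.4 ± 34.2 CPM with overexpression (SD, n = 3 each). EdgeR's test gave a log2 fold change of 0.05 ± 0.05 SE (adjusted p = 0.56), and the 95% interval ran from -0.07 to 0.17. With each of the 6 libraries left out in turn, HSPA5 did not pass the threshold, nor did it with an offset for genomic span, which moved its log2 fold change to 0.12 ± 0.05 SE (adjusted p = 0.18). GPX4, the ferroptosis-suppressing peroxidase that the study follows, was at 136, 141 and 188 CPM in the controls and 125, 134 and 142 CPM in the overexpressing libraries (log2 fold change -0.21 ± 0.12 SE, adjusted p = 0.29). Control replicate 3 was its highest library, and without it the log2 fold change was -0.04 ± 0.06 (adjusted p = 0.64).

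HSP90B1 (GRP94), the ER's HSP90, was at 1187, 1190.0 and 1025 CPM in the controls and 1161, 1171 and 1142 CPM in the overexpressing libraries (log2 fold change 0.03 ± 0.07 SE, adjusted p = 0.80). Control replicate 3 was its lowest library, and the groups overlapped. HYOU1 (GRP170), which exchanges nucleotide on HSPA5 as SIL1 does, was at 241, 239 and 260.2 CPM in the controls and 229, 228 and 219 CPM in the overexpressing libraries. All overexpressing libraries were below all controls at HYOU1, but the difference missed the threshold (log2 fold change -0.13 ± 0.06 SE, adjusted p = 0.16). SIL1 had a log2 fold change of 0.11 ± 0.11 SE (adjusted p = 0.54) with overlapping groups.

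The genes of this class that passed the threshold were DNAJB11, MANF and CRELD1. DNAJB11 (ERdj3; ENSG00000090520, chr3:186567403-186585800, plus strand), which hands unfolded chains to HSPA5, was at 165, 154 and 162 CPM in control replicates 1, 2 and 3 and 136, 136 and 133 CPM in overexpressing replicates 1, 2 and 3. It fell in all 3 overexpressing libraries, with no overlap (log2 fold change -0.25 ± 0.05 SE, adjusted p = 0.019). The call was lost without control replicate 1 (adjusted p = 0.067), overexpressing replicate 1 (0.084), overexpressing replicate 2 (0.082) or overexpressing replicate 3 (0.093). A gene on the opposite strand, TBCCD1, overlaps DNAJB11 over 3141 bases with 9.55% of its counts. MANF (ENSG00000145050, chr3:51385291-51389397, plus strand), a secreted ER stress factor that binds HSPA5, was at 35.1, 35.5 and 37.0 CPM in the controls and 27.8, 28.0 and 29.1 CPM in the overexpressing libraries. The overexpressing libraries formed a tight group below the controls (log2 fold change -0.34 ± 0.06 SE, adjusted p = 0.010), and the call was lost without overexpressing replicate 1 (adjusted p = 0.056) or overexpressing replicate 2 (0.063). CRELD1 (ENSG00000163703, chr3:9933793-9945413, plus strand), a membrane protein with EGF-like domains, had the largest fall among the genes called, from 6.90, 7.19 and 6.66 CPM to 4.64, 4.26 and 4.43 CPM (log2 fold change -0.64 ± 0.13 SE, adjusted p = 0.014). Its call was lost without control replicate 2 (adjusted p = 0.053), overexpressing replicate 2 (0.065) or overexpressing replicate 3 (0.058).

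The inducible cofactors DNAJB9, SDF2L1 and CRELD2, which are classical UPR targets, did not pass the threshold. DNAJB9 (ERdj4), which represses IRE1 through HSPA5, was at 8.14, 7.78 and 8.14 CPM in the controls and 9.67, 9.02 and 10.1 CPM in the overexpressing libraries (log2 fold change 0.26 ± 0.11 SE, adjusted p = 0.15), with every overexpressing library above every control. SDF2L1, a partner of DNAJB11, was at 17.0, 16.7 and 23.2 CPM in the controls and 16.0, 17.2 and 14.3 CPM in the overexpressing libraries (log2 fold change -0.26 ± 0.14 SE, adjusted p = 0.27), and control replicate 3 was the highest library. Without that control the log2 fold change of SDF2L1 was -0.08 ± 0.10 (adjusted p = 0.59). CRELD2, the secreted paralog of CRELD1, had a log2 fold change of -0.10 ± 0.09 SE (adjusted p = 0.51), and DNAJC3 (p58IPK), a co-chaperone that also inhibits eIF2α kinases, 0.04 ± 0.06 SE (adjusted p = 0.69). In all, 3 of the 11 genes of this class were lower and 0 higher in edgeR's test. Of all genes tested, 6.91% were lower and 8.95% higher. The median log2 fold change of the class was -0.10. At an unadjusted p under 0.05 1 was higher (DNAJB9), while DESeq2's Wald test and limma-voom called 0 higher.

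**Figure D3:**
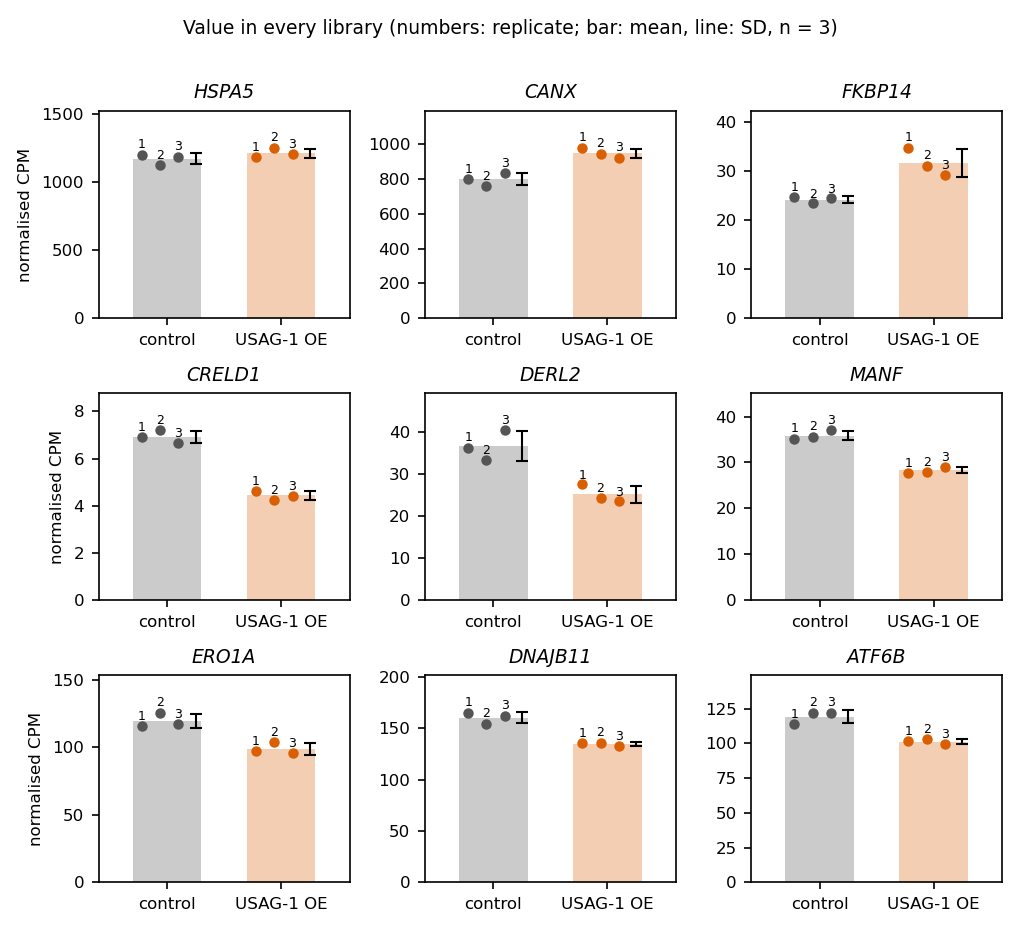
TMM-normalised CPM (linear axis from 0) of HSPA5 and of the 8 genes past the threshold in each library, with the points numbered by replicate, bars at the mean and lines at the SD (n = 3 per group). The groups overlap at HSPA5 and at none of the other 8 genes.

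Of the glycoprotein chaperones, calnexin rose. CANX (ENSG00000127022, chr5:179678628-179731622, plus strand), the membrane-bound lectin of the pair, was at 802, 762 and 832 CPM in control replicates 1, 2 and 3 and 978, 945 and 923 CPM in overexpressing replicates 1, 2 and 3. The lowest overexpressing library lay above the highest control, and the increase was 18.8% (log2 fold change 0.25 ± 0.05 SE, adjusted p = 0.019). The call was lost without control replicate 1 (adjusted p = 0.059), control replicate 2 (0.083), overexpressing replicate 1 (0.099), overexpressing replicate 2 (0.081) or overexpressing replicate 3 (0.063). CALR, its soluble counterpart in the lumen, was at 1646, 1566 and 1858 CPM in the controls and 1744, 1847 and 1808 CPM in the overexpressing libraries with control replicate 3 as the highest library (log2 fold change 0.09 ± 0.07 SE, adjusted p = 0.43). Without that replicate CALR passed the threshold at 0.17 ± 0.03 (adjusted p = 0.005). UGGT1, which re-tags misfolded glycoproteins for this pair, was at 158, 161 and 156 CPM in the controls and 174, 171 and 164 CPM in the overexpressing libraries, above the controls in every overexpressing library but short of the threshold (log2 fold change 0.10 ± 0.05 SE, adjusted p = 0.26).

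Among the 10 disulfide enzymes, 1 was lower and 0 were higher in edgeR's test, beside 6.91% and 8.95% of all genes. At an unadjusted p under 0.05 2 were lower and 1 higher, beside 14.7% and 15.8% of all genes. DESeq2's Wald test called 2 lower and 1 higher, and limma-voom 1 and 0. ERO1A (ENSG00000197930, chr14:52639915-52695900, minus strand), the oxidase that recharges disulfide isomerases, was at 116, 126 and 117 CPM in control replicates 1, 2 and 3 and 97.6, 104 and 95.6 CPM in overexpressing replicates 1, 2 and 3. The groups did not overlap, and ERO1A fell (log2 fold change -0.27 ± 0.06 SE, adjusted p = 0.024). The call was lost without control replicate 2 (adjusted p = 0.086), overexpressing replicate 1 (0.11), overexpressing replicate 2 (0.059) or overexpressing replicate 3 (0.11). The paralog ERO1B was at 11.4, 9.75 and 8.51 CPM in the controls and 10.7, 11.7 and 11.5 CPM in the overexpressing libraries with overlapping groups (log2 fold change 0.19 ± 0.13 SE, adjusted p = 0.36).

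None of the isomerases passed the threshold of edgeR. P4HB (PDI), also the beta subunit of collagen prolyl hydroxylase, had a log2 fold change of -0.05 ± 0.07 SE, PDIA3 (ERp57), the partner of the lectin chaperones, -0.03 ± 0.05, and PDIA4 (ERp72) -0.08 ± 0.05. TXNDC5 was at 0.01 ± 0.07, PDIA5 at 0.07 ± 0.07 and the membrane protein TXNDC11 at -6.9e-05 ± 0.06, and the adjusted p of these 6 genes ranged from 0.31 to 0.999. Control replicate 3 was the highest of the controls for each of the 6, and the groups overlapped except at PDIA4, where every overexpressing library was below the controls. PDIA6, which attenuates IRE1 and PERK signalling, was at 513, 498 and 566 CPM in the controls and 455, 476 and 443 CPM in the overexpressing libraries, below the controls throughout (log2 fold change -0.20 ± 0.06 SE, adjusted p = 0.073). DNAJC10 (ERdj5), a reductase that opens disulfides before degradation, was at 126, 128 and 106 CPM in the controls and 143, 144 and 137 CPM in the overexpressing libraries, above the controls throughout (log2 fold change 0.24 ± 0.08 SE, adjusted p = 0.084). Without control replicate 3 these 2 genes passed the threshold at -0.14 ± 0.04 (adjusted p = 0.021) and 0.16 ± 0.04 (adjusted p = 0.015), respectively. SEC22A shares 23301 bases of the same strand with PDIA5, and the pseudogene PDIA3P1 took 4.58% as many counts as PDIA3, so the counts of these genes may not be fully their own.

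Of the 2 prolyl isomerases, FKBP14 passed the threshold. FKBP14 (ENSG00000106080, chr7:30010587-30026702, minus strand), an isomerase of procollagens, was at 24.7, 23.4 and 24.4 CPM in control replicates 1, 2 and 3 and 34.6, 31.1 and 29.1 CPM in overexpressing replicates 1, 2 and 3. It rose by 30.9% in edgeR's test (log2 fold change 0.39 ± 0.08 SE, adjusted p = 0.017), with overexpressing replicate 1 highest and no overlap. The call was lost without control replicate 2 (adjusted p = 0.066), overexpressing replicate 1 (0.074) or overexpressing replicate 2 (0.070). PPIB (cyclophilin B), an abundant isomerase of the lumen, was at 297, 305 and 384 CPM in the controls and 263, 267 and 275 CPM in the overexpressing libraries. Every overexpressing library lay below the controls, control replicate 3 was far above the other controls, and the difference missed the threshold (log2 fold change -0.29 ± 0.10 SE, adjusted p = 0.080). With that control left out PPIB passed it at -0.16 ± 0.04 (adjusted p = 0.011).

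In ER-associated degradation, 1 of 11 genes was lower and 0 were higher in edgeR's test, beside 6.91% and 8.95% of all genes. The median log2 fold change of the 11 genes was -0.10. At an unadjusted p under 0.05 the counts were 4 and 0, and DESeq2's Wald test and limma-voom each called 1 and 0. DERL2 (ENSG00000072849, chr17:5471254-5486178, minus strand), a derlin of the retrotranslocation channel, was at 36.3, 33.3 and 40.4 CPM in control replicates 1, 2 and 3 and 27.6, 24.4 and 23.6 CPM in overexpressing replicates 1, 2 and 3. Each overexpressing library was below each control, and DERL2 fell (log2 fold change -0.54 ± 0.10 SE, adjusted p = 0.008), a call lost without overexpressing replicate 2 (adjusted p = 0.055) and kept without each of the other 5 libraries. Its paralogs did not pass the threshold. DERL1 was at 113, 109 and 115 CPM in the controls and 104, 103 and 107 CPM in the overexpressing libraries (log2 fold change -0.10 ± 0.05 SE, adjusted p = 0.26). DERL3 had 32, 42 and 37 counts in the controls and 24, 18 and 10 in the overexpressing libraries (log2 fold change -1.08 ± 0.40 SE, adjusted p = 0.10). It lies across SMARCB1, a gene on the opposite strand with a mean of 5952 counts, so the few counts at DERL3 are uncertain.

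SYVN1 (HRD1), the ubiquitin ligase of the pathway, was at 38.8, 37.9 and 33.9 CPM in the controls and 35.8, 36.1 and 35.6 CPM in the overexpressing libraries (log2 fold change -0.04 ± 0.07 SE, adjusted p = 0.75), with overlapping groups. SEL1L, its adaptor, was at 73.5, 72.5 and 65.8 CPM in the controls and 79.8, 78.6 and 74.4 CPM in the overexpressing libraries, above the controls throughout (log2 fold change 0.14 ± 0.07 SE, adjusted p = 0.21). HERPUD1, a strongly UPR-induced scaffold of that complex, was at 66.2, 66.6 and 74.0 CPM in the controls and 74.0, 74.9 and 76.4 CPM in the overexpressing libraries. The lowest overexpressing library and the highest control differed by less than 0.1 CPM, and the difference missed the threshold (log2 fold change 0.12 ± 0.06 SE, adjusted p = 0.24). Without control replicate 3, HERPUD1 reached 0.18 ± 0.04 (adjusted p = 0.013). Of the mannosidase-like EDEM proteins, which mark glycoproteins for disposal, EDEM1 had a log2 fold change of -0.11 ± 0.07 SE, EDEM2 0.0015 ± 0.13 and EDEM3 0.17 ± 0.09, all with overlapping groups. The lectin OS9, which receives the trimmed glycoproteins, was at 198, 201 and 203 CPM in the controls and 185, 185 and 177 CPM in the overexpressing libraries (log2 fold change -0.14 ± 0.05 SE, adjusted p = 0.11), and SELENOS, a selenoprotein of the channel, at 22.9, 22.0 and 24.7 CPM in the controls and 21.9, 18.0 and 18.2 CPM in the overexpressing libraries (log2 fold change -0.26 ± 0.10 SE, adjusted p = 0.12). Without control replicate 3, OS9 at -0.12 ± 0.04 (adjusted p = 0.031) and EDEM1 at -0.16 ± 0.05 (adjusted p = 0.032) also passed. SYVN1 shares 374 bases of the same strand with FAU, a ribosomal protein gene with 5792 counts on average.

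None of the 3 UPR sensors passed the threshold in edgeR's test, and none did at an unadjusted p under 0.05, in DESeq2's Wald test or in limma-voom. ATF6, which is cleaved to a transcription factor, was at 69.4, 67.4 and 84.8 CPM in the controls and 75.7, 71.5 and 69.7 CPM in the overexpressing libraries (log2 fold change -0.03 ± 0.09 SE, adjusted p = 0.86). ERN1 (IRE1), the kinase and RNase that splices XBP1 mRNA, was at 13.4, 13.2 and 14.3 CPM in the controls and 13.5, 11.6 and 13.1 CPM in the overexpressing libraries (log2 fold change -0.10 ± 0.10 SE, adjusted p = 0.58). EIF2AK3 (PERK), which phosphorylates eIF2α, was at 28.7, 26.8 and 29.2 CPM in the controls and 31.2, 28.1 and 27.7 CPM in the overexpressing libraries (log2 fold change 0.04 ± 0.08 SE, adjusted p = 0.77). The groups overlapped at all 3 sensors, and the 95% intervals ran from -0.25 to 0.18 for ATF6, from -0.33 to 0.14 for ERN1 and from -0.14 to 0.22 for EIF2AK3. ATF6B (ENSG00000213676, chr6:32115264-32128253, minus strand), the paralog of ATF6, was at 114, 122 and 122 CPM in control replicates 1, 2 and 3 and 102, 103 and 99.3 CPM in overexpressing replicates 1, 2 and 3. It fell in every overexpressing library (log2 fold change -0.23 ± 0.06 SE, adjusted p = 0.029), a call lost without control replicate 2 (adjusted p = 0.096), overexpressing replicate 1 (0.11), overexpressing replicate 2 (0.098) or overexpressing replicate 3 (0.12). XBP1, the transcription factor downstream of IRE1, was at 119, 112 and 141 CPM in the controls and 104, 109 and 108 CPM in the overexpressing libraries, with all overexpressing libraries lowest, control replicate 3 highest and the difference short of the threshold (log2 fold change -0.22 ± 0.09 SE, adjusted p = 0.14). Without control replicate 3 the log2 fold change of XBP1 was -0.10 ± 0.04 (adjusted p = 0.12). Counts per gene do not separate spliced from unspliced XBP1, nor do they report the cleavage of ATF6 or the phosphorylation of PERK.

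Genes listed under the PERK arm were counted apart from the members. Of 12 genes of the PERK arm and its ATF4 branch, 6 were higher and 0 lower in edgeR's test, beside 8.95% and 6.91% of all genes, with a median log2 fold change of 0.24. Past the threshold were 5, 4 and 8 of the 12 without control replicate 1, 2 or 3 and 4, 2 and 3 without overexpressing replicate 1, 2 or 3, respectively. At an unadjusted p under 0.05 7 were higher and 0 lower, and DESeq2's Wald test and limma-voom called 7 and 6 higher and none lower. ATF3, a stress-induced repressor, was at 8.98, 10.4 and 11.1 CPM in the controls and 17.7, 21.8 and 21.7 CPM in the overexpressing libraries (log2 fold change 1.01 ± 0.12 SE, adjusted p = 0.002), and TRIB3, a pseudokinase target of ATF4 and CHOP, at 55.7, 59.5 and 70.9 CPM in the controls and 96.2, 104 and 102 CPM in the overexpressing libraries (log2 fold change 0.70 ± 0.09 SE, adjusted p = 0.003). Both were above the controls in every overexpressing library and kept their call without each library in turn. The other 4 genes called were chosen for naming after their values were seen. They were CHAC1, a glutathione-degrading enzyme (log2 fold change 1.05 ± 0.19 SE, adjusted p = 0.009), DDIT3 (CHOP; log2 fold change 0.61 ± 0.14 SE, adjusted p = 0.021), PPP1R15B, a subunit of the eIF2α phosphatase (log2 fold change 0.24 ± 0.05 SE, adjusted p = 0.015), and ATF4 itself (log2 fold change 0.23 ± 0.06 SE, adjusted p = 0.030). CHAC1 lost its call without overexpressing replicate 2 (adjusted p = 0.051), DDIT3 without overexpressing replicate 2 (adjusted p = 0.086) or overexpressing replicate 3 (0.090), PPP1R15B without control replicate 2 (adjusted p = 0.060), overexpressing replicate 1 (0.070), overexpressing replicate 2 (0.072) or overexpressing replicate 3 (0.071), and ATF4 without control replicate 1 (adjusted p = 0.096), control replicate 2 (0.10), overexpressing replicate 1 (0.081), overexpressing replicate 2 (0.11) or overexpressing replicate 3 (0.12). ATF4 also lost its call with no filter on low counts (adjusted p = 0.064). No test compared these genes with the chaperones. EIF2AK4, EIF2AK1 and EIF2AK2 also phosphorylate eIF2α and were listed under other UPR signalling. EIF2AK4 was higher (log2 fold change 0.31 ± 0.07 SE, adjusted p = 0.022 in edgeR's test). EIF2AK1 (0.22 ± 0.07, adjusted p = 0.080) and EIF2AK2 (0.09 ± 0.08, adjusted p = 0.46) missed the threshold. These kinases were named after their values were seen and not followed through the alternatives. Which kinase acts on the ATF4 branch here was not tested.

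Other genes of the ER were counted from further lists of its machinery, which with the PERK arm hold 167 genes. Of the 165 that could be tested, 24 (14.5%) were higher and 7 (4.24%) lower, beside 8.95% and 6.91% of all genes. In all 18.8% passed, beside 15.9% of all genes, and the median log2 fold change of the 165 was 0.03. Past the threshold were 18, 19 and 73 of them without control replicate 1, 2 or 3 and 15, 10 and 13 without overexpressing replicate 1, 2 or 3, while the share of all genes in the same fits ranged from 5.98% without overexpressing replicate 2 to 27.0% without control replicate 3. In those 2 fits 57 were higher and 16 lower without the control, and 10 and 0 without the overexpressing library (13 lower at an unadjusted p under 0.05). PDIA2 and GPX7 were too low to test. In COPII transport and retrieval 3 of 22 genes (13.6%) were higher, beside 8.95% of all genes. The smallest p were at the coat subunits SEC31A (log2 fold change 0.39 ± 0.06 SE, adjusted p = 0.005) and SEC24B (log2 fold change 0.32 ± 0.07 SE, adjusted p = 0.015). In ER-associated degradation outside the members, 5 of 27 (18.5%) were higher. The smallest p were at FOXRED2, an ER flavoprotein (log2 fold change 0.71 ± 0.07 SE, adjusted p = 0.001), and BAG6, a holdase for tail-anchored and retrotranslocated proteins (log2 fold change 0.39 ± 0.06 SE, adjusted p = 0.005). Of the other chaperones and isomerases 3 of 24 (12.5%) were higher. Among them were HSPA13 (log2 fold change 0.37 ± 0.06 SE, adjusted p = 0.007) and the calcium-binding protein CALU (log2 fold change 0.22 ± 0.05 SE, adjusted p = 0.024). SEC31A, FOXRED2, BAG6 and HSPA13 kept their calls without each library in turn. In these 3 lists edgeR called none lower, beside 6.91% of all genes. At an unadjusted p under 0.05 3, 0 and 4 were lower, and in DESeq2's Wald test 1, 0 and 1, while limma-voom called none. The higher genes of the 3 lists numbered 6, 6 and 5 at an unadjusted p under 0.05. DESeq2's Wald test called 6, 5 and 3 higher, and limma-voom 3, 5 and 3. SEC24B lost its call without control replicate 2 (adjusted p = 0.054), overexpressing replicate 1 (0.061) or overexpressing replicate 2 (0.076), and CALU without control replicate 1 (adjusted p = 0.069), control replicate 2 (0.092), overexpressing replicate 1 (0.11), overexpressing replicate 2 (0.11) or overexpressing replicate 3 (0.065).

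In the list of the translocon and signal peptidase 3 genes were higher and 2 lower of 24. These are 12.5% and 8.33%, beside 8.95% and 6.91% of all genes. SEC63, the translocon's DnaJ protein that recruits HSPA5, was at 116, 118 and 102 CPM in the controls and 151, 154 and 144 CPM in the overexpressing libraries (log2 fold change 0.42 ± 0.07 SE, adjusted p = 0.007). SRP72, of the signal recognition particle, had a log2 fold change of 0.32 ± 0.07 SE (adjusted p = 0.019). At an unadjusted p under 0.05 this list had 3 genes higher and 6 lower. DESeq2's Wald test called 3 higher and 5 lower, and limma-voom 3 and 2. In N-glycosylation 1 of 23 (4.35%) was higher, against 2 at an unadjusted p under 0.05, and 4 (17.4%) were lower. PRKCSH, the beta subunit of the glucosidase that trims glycans for calnexin and calreticulin, was at 346, 363 and 339 CPM in the controls and 464, 458 and 455 CPM in the overexpressing libraries (log2 fold change 0.39 ± 0.05 SE, adjusted p = 0.002), and the glucosyltransferase ALG6 was lower (log2 fold change -0.47 ± 0.11 SE, adjusted p = 0.023). Among other UPR signalling genes 2 (10.5%) were higher and 1 (5.26%) lower of 19. At an unadjusted p under 0.05 the counts were 4 and 3, and DESeq2's Wald test called 4 and 2 and limma-voom 2 and 1. WFS1 (wolframin), an ER membrane glycoprotein, was at 22.1, 24.2 and 26.9 CPM in the controls and 41.1, 44.1 and 37.7 CPM in the overexpressing libraries (log2 fold change 0.75 ± 0.09 SE, adjusted p = 0.002), and NFYB, a subunit of the CCAAT-binding factor that acts with ATF6, fell (log2 fold change -0.48 ± 0.10 SE, adjusted p = 0.015). Of the other disulfide isomerases 1 of 14 (7.14%) was higher and 0 lower. At an unadjusted p under 0.05 3 were higher and 3 lower, and DESeq2's Wald test and limma-voom called 1 higher each and 1 and 0 lower. GPX8, of the peroxidase family, was higher (log2 fold change 0.29 ± 0.07 SE, adjusted p = 0.025), and ERP44, next by p, missed the threshold (log2 fold change 0.19 ± 0.06 SE, adjusted p = 0.074). SEC63, PRKCSH and WFS1 kept their calls without each library in turn. SRP72 lost its call without overexpressing replicate 1 (adjusted p = 0.081), overexpressing replicate 2 (0.086) or overexpressing replicate 3 (0.063), ALG6 without control replicate 1 (adjusted p = 0.064), control replicate 2 (0.079), overexpressing replicate 1 (0.087), overexpressing replicate 2 (0.073) or overexpressing replicate 3 (0.096), NFYB without control replicate 1 (adjusted p = 0.052), control replicate 2 (0.056), overexpressing replicate 2 (0.082) or overexpressing replicate 3 (0.069), and GPX8 without control replicate 2 (adjusted p = 0.071), overexpressing replicate 1 (0.074), overexpressing replicate 2 (0.099) or overexpressing replicate 3 (0.099). ERP44 passed the threshold without control replicate 3, at 0.22 ± 0.05 (adjusted p = 0.010).

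Fold changes followed gene length across the whole table. The median log2 fold change of all genes tested went from -0.16 for the genes with the shortest genomic span to 0.08 for those with the longest, with genes in 5 classes of equal number. Of the ER genes, the 16 in the 2 shortest classes, with a span up to 16.0 kb, included 4 of the 6 lower genes and 0 of the 2 higher ones, with medians of -0.30 and -0.17. Of all genes in those 2 classes, 6.46% and 7.84% were lower and 1.79% and 5.75% higher. The 15 ER genes in the 2 longest classes, with a span of at least 35.6 kb, had medians of 0.15 and 0.04 and held 1 higher gene (CANX) and 1 lower gene (ERO1A). Of all genes in the 2 longest classes, 6.24% and 5.88% were lower and 10.8% and 17.8% higher. With an offset that removes the relation to span in each library, the same 8 genes passed the threshold. The strand setting of the counting is not given in the sources used here, so counts of overlapping genes may be shared. Of the 42 genes 26 overlapped another gene of the table, and for 6 of them (CRELD2, PDIA5, TXNDC11, SYVN1, DERL1 and DERL3) that gene held at least 10% as many counts. The overlapping genes are ALG12 for CRELD2, SNN for TXNDC11, MRPL49 beside FAU for SYVN1 and TBC1D31 for DERL1.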

How the data were processed

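RNA from 6 HK-2 libraries, 3 control and 3 overexpressing USAG-1, was measured by sequencing. The labels describe poly(A) selection, a strand-specific kit and paired reads, while the design text names removal of ribosomal RNA and another sequencer. The authors deposited 1 table of whole-number counts per gene for all libraries, not normalised, although its name speaks of FPKM. The submitters' processing notes name cutadapt 1.9, FastQC and the build hg38, and the aligner, the counting tool and its strand setting are not given in the sources used here. Library totals and groups are given in the report, and nothing in the labels says that the libraries came from separate cultures, so that p-values measure the spread between these libraries, which may be technical.

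Genes were filtered with edgeR 4.0.16 (filterByExpr with a minimum count of 10 and a minimum total of 15, in R 4.3.3), scaled by TMM and tested by the quasi-likelihood test without covariates, with Benjamini-Hochberg adjustment over the 18188 genes tested. Genes were called at an adjusted p under 0.05 and any fold change, as the study's methods do for public expression sets analysed with DESeq2. The SE is the log2 fold change over the square root of F, and the 95% intervals use the fit's total degrees of freedom. A replicate's library is written control or overexpressing replicate 1, 2 or 3. DESeq2 1.42.0, limma 3.58.1 (voom), other scalings and filters, a replicate block, a genomic span offset, an adjusted p under 0.01 and each library left out were alternatives. The scripts were tested on simulated data. No set test was run.

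All 42 genes are named, and of each list of other ER genes the 2 with the smallest p, beside SOSTDC1 and GPX4. Further genes, among them 4 of the PERK arm, were chosen for naming after their values were seen. The members, the lists of other ER genes and the markers of kidney epithelium, epithelium, T and NK, plasma, B, myeloid, platelet and erythroid, and fibroblast and endothelial cells were chosen with earlier results of these data known. Of the further marker lists, 1 of 6 B cell genes tested was higher (CD22), and of 8 myeloid genes 1 was higher (CD68) and 2 lower (LYZ and ITGAM). The lower myeloid genes numbered 3 at an unadjusted p under 0.05, 3 in DESeq2's Wald test and 1 in limma-voom. Of the 8, 6 had a negative log2 fold change (median -0.30). None of the 5 platelet and erythroid or 3 fibroblast and endothelial genes tested passed edgeR's threshold, an unadjusted p under 0.05, DESeq2's Wald test or limma-voom. Of the kidney epithelial genes tested, 3 of 9 were higher (GGT1, PAX8 and MME) and 1 lower (CDH6), and 0 of 5 epithelial genes passed it (2 higher at an unadjusted p under 0.05, 1 in DESeq2's Wald test, 0 in limma-voom). These marker genes were chosen for naming after their values were seen, and 1 further kidney marker is not reported here. Promoter sequences of the build of these files were not used here.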

Additional observations from a re-analysis of the deposited data

How the results depend on the processing

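Normalisation with DESeq2's size factors, limma-voom, removal of the mitochondrially encoded genes, a minimum of 10 counts in every library, no filter on low counts and an offset for genomic span each left the same 8 ER folding genes past the threshold. With no filter on low counts, 6.26% of the 32507 genes then tested passed it. Library sizes alone added PDIA6, and DESeq2's Wald test added PDIA6, PPIB and DNAJC10, while the share of all genes past the threshold went from 15.9% to 16.1% and 20.7%, respectively. At an adjusted p under 0.01, 0 of the 42 genes were higher and 2 lower (DERL2 and MANF), against 4 and 13 at an unadjusted p under 0.05 in the same edgeR fit, where 15.8% and 14.7% of all genes were. Over all genes the counts at 0.01 were 635 higher and 469 lower, and over the other ER genes 11 and 0, against 23 lower at an unadjusted p under 0.05. The lower calls among the other ER genes numbered 14 with DESeq2's Wald test and 4 with no filter on low counts. Among the 42 genes and the other ER genes followed through the alternatives, no gene past the threshold changed sign under an alternative. Of the alternatives, the marker lists were counted under DESeq2's Wald test and limma-voom alone. The cause of these shifts was not tested.

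The deviations of same-numbered libraries from the group means correlated at 0.06, -0.05 and 0.03 across genes. Differently numbered pairs ran from -0.13 to 0.10, so these values cannot decide whether same-numbered libraries were prepared together. With the replicate number as a block, 1352 genes were higher and 1029 lower, and 1 of the 42 genes was higher (FKBP14) and 5 lower, CANX and ATF6B being lost, while the other ER genes gave 20 and 7. Among the other ER genes followed through the alternatives, CALU and GPX8 lost their calls with the block. The block left the median log2 fold change of the 42 genes at -0.03. With the block and the span offset together, 1079 genes were higher, and 1 of the 42 was higher and 3 lower.

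With each library left out in turn, the higher calls ranged over 630 to 2985 and the lower calls over 507 to 2106 for all genes, 0 to 5 and 0 to 10 for the 42 genes, and 10 to 57 and 0 to 16 for the other ER genes. The median log2 fold change of the 42 genes ranged from -0.0776 without control replicate 2 to 0.0071 without control replicate 3. HSPA5, lowest without control replicate 2 and highest with the span offset and the block, lay between 0.02 and 0.12 over all 17 alternatives, its adjusted p between 0.18 and 0.87. What depth limits was not tested. DERL3 had the fewest counts of the 42 genes, at most 42 in a library, and an SE of 0.40, followed by CRELD1 with at most 355 and an SE of 0.13.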
